A study of Mus musculus with 2 samples.

Results

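A set of 38 interferon-stimulated genes was followed in monocytes of the mouse spleen after 5/6 nephrectomy. The set gathers genes of the interferon response that lie outside its best-known families: Isg15 and the enzymes that attach and remove it, the interferon-responsive PARP genes, RNA-directed effectors, components of PML nuclear bodies, and a mixed group of membrane, secreted and signal-modulating proteins. Its members were chosen with earlier results of these data known, so their counts beside all genes are a description and no independent contrast. They were matched by name, as non-control probes whose gene name in the scanner files equals the member's symbol. All 38 were found among 37074 gene names on the array, through 71 probes with 1 spot each. The 5/6Nx group is 1 array of ICR mice, an outbred stock, from which most of the kidney tissue had been removed, a model of chronic kidney disease, and the sham group is 1 array of ICR mice after a sham operation. In both groups the cells were taken from the spleen 8 weeks after surgery and sorted with antibodies against CD11b and Ly6c. The age of the mice, and how many contributed to each RNA sample, are not given in the sources used here. Every value is thus from 1 array per group, without a replicate check, and no p-value was computed.

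Interferons bind receptors at the cell surface, and Janus kinases bound to those receptors activate STAT transcription factors. After type I interferon a complex of STAT proteins with IRF9 binds the interferon-stimulated response element (ISRE), whereas after interferon gamma STAT dimers bind the gamma-activated site (GAS). The genes switched on in this way restrict viruses and other pathogens, and in monocytes and macrophages many of them also respond to interferon gamma.

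The members were higher on the 5/6Nx array almost without exception. Of the 38 members, 36 were measured on both arrays, that is, with a signal the scanner software marks as well above background, and 35 of these 36 showed a 2-fold or greater excess on the 5/6Nx array. Of all 22301 genes measured on both arrays, 11.8% did so. None of the 36 was at least 2-fold lower, against 9.71% of all genes. The remaining 2, Cmpk2 and Ddx60, were detected (well above background) on the 5/6Nx array alone, as were 9.77% of genes detected on at least 1 array. The difference in log2 units (5/6Nx minus sham, each array scaled to its 75th percentile) had a median of 3.23 over the 36 members, a 9.38-fold higher signal, and of -0.10 over all genes. Among genes measured on both arrays, which leaves Cmpk2 and Ddx60 unranked, Apol9b, Isg15, Usp18 and Rtp4 were the members within the 100 largest differences upward.

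Most members were at least 8-fold higher, and few were beyond 32-fold. At least 4-fold higher were 29 members, against 4.12% of all genes, and at least 8-fold higher were 24, against 2.38%. Of these 24, 13 were less than 16-fold higher, 6 lay between 16-fold and 32-fold, and 5 were beyond 32-fold. The error that the scanner software attaches to each spot gives a difference of 2 spots an error of 0.20 at the median member and of 0.26 at most. It covers the spot reading alone, not sorting, labelling or the animals. Members whose differences lie closer together than this error therefore have no settled order.

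**Figure D1:**
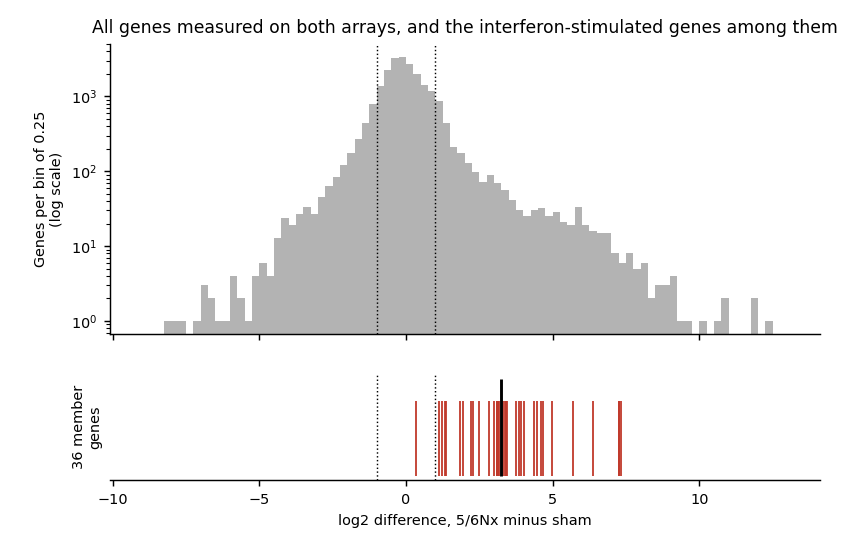
Upper panel, number of genes (log scale) by log2 difference, 5/6Nx minus sham, for all 22301 genes measured on both arrays. Lower panel, the 36 members measured on both arrays as red lines, with their median of 3.23 in black; dotted lines mark 2-fold. All but 1 member lie to the right of the upper 2-fold line.

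The promoters of the members were read for both interferon motifs, since the genes moved together. The ISRE core was searched as GAAA, any 2 bases, GAAA on both strands, and GAS as TTC, any 3 bases, GAA, which reads alike on both strands. The windows run from 250 bases before to 50 bases after the annotated start site (RefSeq, GRCm38.p6), and the base just before the start site counts as -1. Of the 38 members, 31 had at least 1 window, and Usp18, Rtp4, Parp9, Parp10, Parp14, Tor3a and Ifi27l2a had none. An ISRE core was in a window of 7 of them, Apol9b, Isg15, Ddx60, Bst2, Eif2ak2, Lgals9 and Tdrd7, and of 3.99% of all genes with a window. GAS matches were found in 6 members, Adar, Bst2, Eif2ak2, Ifi35, Isg20 and Samhd1, and in 9.55% of all genes. Stretches of 60 bases upstream of the start site are printed for 3 members with large differences and, for contrast, 2 with small ones, in the 5′ to 3′ direction of the gene, with ISRE cores in capitals. Neighbouring cores overlap and merge into 1 run of capitals. Because the stretches were picked by the size of the differences, they cannot show whether cores and differences go together. Ddx60 and Eif2ak2, whose core lies 18 bases after the start site, are not printed.

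Isg15, chr4:156200850-156200909, minus strand, from -91 to -32: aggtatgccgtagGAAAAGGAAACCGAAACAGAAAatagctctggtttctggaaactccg
Apol9b, chr15:77729012-77729071, plus strand, from -60 to -1: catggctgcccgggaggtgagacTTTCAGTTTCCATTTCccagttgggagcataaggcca
Bst2, chr8:71537562-71537621, minus strand, from -149 to -90: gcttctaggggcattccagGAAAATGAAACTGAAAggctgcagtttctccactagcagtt
Lgals9, chr11:78984945-78985004, minus strand, from -80 to -21: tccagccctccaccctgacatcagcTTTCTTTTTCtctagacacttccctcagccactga
Tdrd7, chr4:45972081-45972140, plus strand, from -216 to -157: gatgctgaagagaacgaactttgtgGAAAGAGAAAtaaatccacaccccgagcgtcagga

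Isg15 carries 3 overlapping cores in a row, and Apol9b and Bst2 carry 2 each, while Lgals9 and Tdrd7 show a single core in the printed stretch. Lgals9 has a further core at 15 bases after the start site, so its window holds as many as that of Bst2. In Bst2 the GAS match overlaps the first core. Ddx60, detected on the 5/6Nx array alone, has 2 separate cores, at -53 and -19. The 6 measured members with an ISRE core had differences from 1.33 to 7.34 with a median of 4.09, and the 23 measured members with a window but no core ran from 0.32 to 4.96 with a median of 3.12. These ranges overlap widely, and Usp18 (7.26) and Rtp4 (6.37), without a window, are in neither. A match describes letters in the window and shows no binding.

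**Figure D2:**
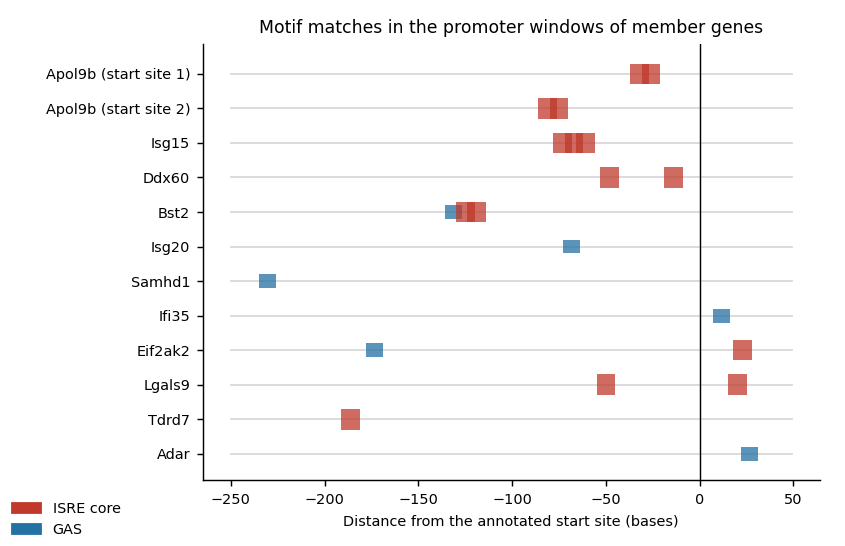
Positions of ISRE core (red) and GAS (blue) matches along the promoter windows of the 11 members with a match, as distance in bases from the annotated start site. Rows run from members with larger to smaller differences, with 1 row per start site, and the clustered ISRE cores stand in Apol9b, Isg15 and Bst2.

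The ISG15 system had the highest median of the role groups, 5.87. Isg15 encodes a ubiquitin-like protein that is coupled to other proteins and also secreted. Its single probe, on chromosome 4 at 155573649 to 155573708 in mm9, reached 102951 intensity units on the 5/6Nx array, against 540.1 on the sham array, a scaled difference of 7.26, or 154-fold. Usp18, the protease that strips ISG15 from its targets and restrains signalling at the type I interferon receptor, read 10240 on the 5/6Nx array and 54.1 on the sham array (difference 7.26, or 6.22 with normexp background correction). Herc6, the ligase that couples ISG15 in the mouse, read 2075 on the 5/6Nx array and 75.2 on the sham array, a difference of 4.48 (3.63 with normexp). Ube2l6, its conjugating enzyme, read 5409 on the 5/6Nx array and 888.1 on the sham array (2.30), and a second, dimmer probe of Ube2l6 gave 3.44. The activating enzyme of the pathway, Uba7, which is no member, read 18216 on the 5/6Nx array and 1337 on the sham array (3.46). Every gene of the conjugation cycle thus stood beyond the 2-fold line in the direction of 5/6Nx, with the modifier and its protease furthest apart and the conjugating enzyme least.

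**Figure D3:**
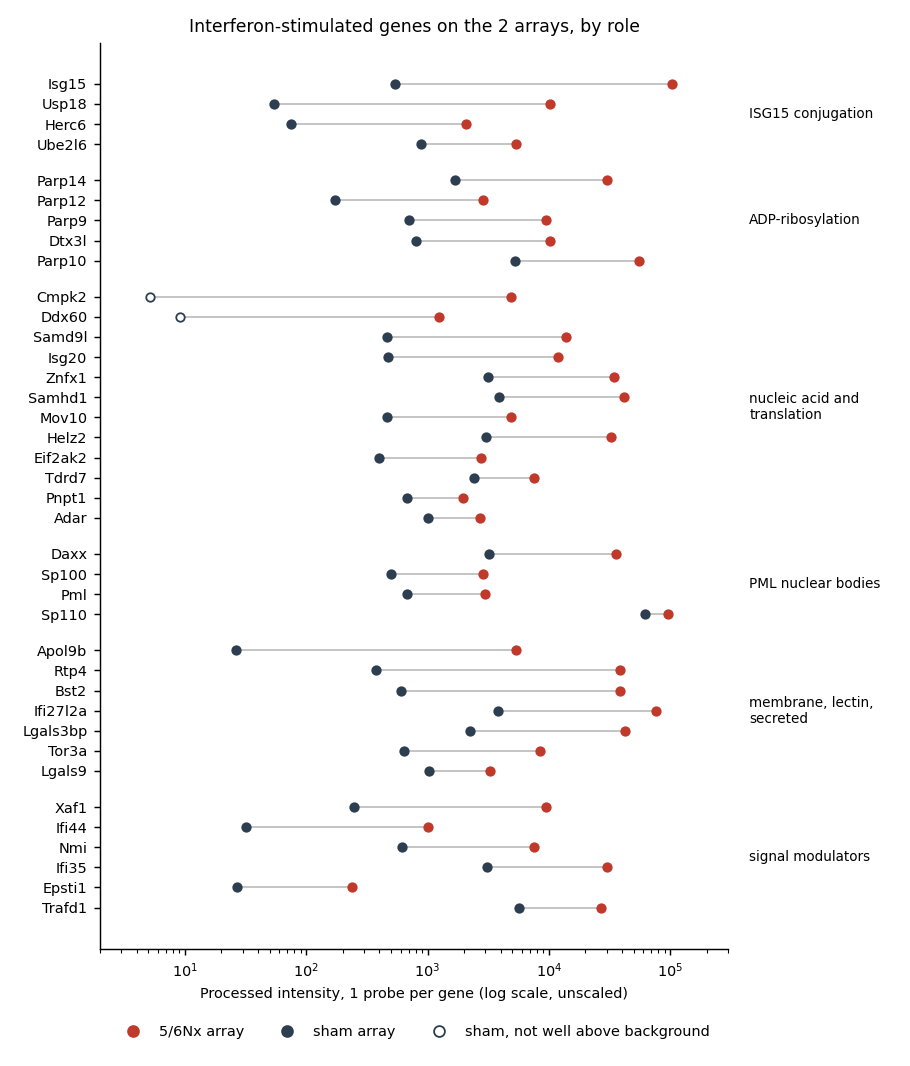
Processed intensity (log axis, before scaling between arrays) of the probe that represents each of the 38 members, on the 5/6Nx array (red) and on the sham array (dark), grouped by role. Every red point lies to the right of its dark partner, and the open points of Cmpk2 and Ddx60 are not well above background.

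The ADP-ribosylation group, read by the brightest probe of each gene, kept within a factor of 2. PARP9 forms a complex with the ubiquitin ligase DTX3L, and PARP10, PARP12 and PARP14 attach single ADP-ribose units to proteins. Differences of the 5 genes ran from 3.10 to 3.85, all in the direction of 5/6Nx. Parp14 read 30014 on the 5/6Nx array and 1683 on the sham array (3.85), and Parp12 read 2886 on the 5/6Nx array and 172.8 on the sham array (3.75). Parp9 read 9397 on the 5/6Nx array and 706.9 on the sham array (3.42). Its partner Dtx3l read 10176 on the 5/6Nx array and 802.2 on the sham array (3.36). The brightest probes of the pair thus differed by less than the software error, but the other measured Parp9 probes gave 0.78 and 1.05, and with the mean over probes the values were 1.75 for Parp9 and 3.18 for Dtx3l. Parp10 read 55436 on the 5/6Nx array and 5214 on the sham array (3.10). Parp14, Dtx3l and Parp9 are neighbours on chromosome 16 (mm9), where the probes of Parp14 and Dtx3l lie 93604 bases apart and those of Dtx3l and Parp9 45863 bases apart. Dtx3l and Parp9 lie on opposite strands, and their human counterparts are known to be transcribed divergently from a shared promoter.

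Effectors that act on RNA, nucleotides or translation were the most numerous group. The 10 measured members of this group, of 12, had differences from 1.12 to 4.60, all at least 2-fold higher. Samd9l, an antiviral inhibitor of translation, read 13883 on the 5/6Nx array and 461.7 on the sham array (4.60). Isg20, an exonuclease, read 11904 on the 5/6Nx array and 468.5 on the sham array (4.36), and its second probe gave 5.28.

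By their brightest probes another 4 genes of this group stood between 3.09 and 3.13, but the mean over probes put them at 1.46 (Helz2), 2.68 (Mov10), 3.13 (Znfx1) and 3.40 (Samhd1). Samhd1, which destroys deoxynucleotides and starves reverse transcription, read 41482 on the 5/6Nx array and 3861 on the sham array (3.12). The helicase-like RNA sensor Znfx1 read 34211 on the 5/6Nx array and 3162 on the sham array (3.13). For Mov10, an RNA helicase that restricts retroelements, the intensity was 4909 on the 5/6Nx array and 461.0 on the sham array (3.10), and its dimmer probes gave 3.60 and 1.34. Helz2, a helicase that acts as a nuclear receptor coactivator, read 32249 on the 5/6Nx array and 3046 on the sham array (3.09).

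The remaining 4 measured genes of the group had the smallest differences in it. Eif2ak2, the kinase PKR that halts translation on double-stranded RNA, read 2752 on the 5/6Nx array and 398.1 on the sham array (2.48). Adar, which edits adenosine in double-stranded RNA and restrains its sensing, read 2705 on the 5/6Nx array and 1005 on the sham array (1.12), with 1.92 from its other probe. Tdrd7, a Tudor domain protein of RNA granules, read 7555 on the 5/6Nx array and 2416 on the sham array (1.33). Pnpt1, the mitochondrial polynucleotide phosphorylase, read 1955 on the 5/6Nx array and 679.6 on the sham array (1.21). Adar, Pnpt1 and Tdrd7 were the measured genes of this group closest to the 2-fold line.

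Cmpk2 and Ddx60 could only be bounded. Cmpk2, a mitochondrial nucleotide kinase, read 4881 on the 5/6Nx array, and its sham reading of 5.16 was not well above background. Set against the lowest signal well above background on the sham array, 12.8, the Cmpk2 signal on the 5/6Nx array was higher by a factor of at least 308. For Ddx60, a helicase linked to RIG-I signalling, the bound was at least 79.3-fold (1256 on the 5/6Nx array, and 9.12, not well above background, on the sham array). A second Ddx60 probe read 1246 on the 5/6Nx array and 7.89 on the sham array. With both genes added at their bounds, the median of the members was 3.33.

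Components of PML nuclear bodies, the nuclear domains that hold chromatin regulators and antiviral factors, had the lowest median of the role groups, 2.02. That median counts Sp110 at 0.32 by its brightest probe, while its next brightest gave 3.35. Daxx, a chaperone of the histone variant H3.3, read 35525 on the 5/6Nx array and 3225 on the sham array (3.15), and its 3 probes ran from 2.91 to 3.15. Sp100, a resident of these bodies, read 2844 on the 5/6Nx array and 496.8 on the sham array (2.21). Pml, their scaffold, read 2978 on the 5/6Nx array and 673.5 on the sham array (1.83), or 2.27 by its dimmer probe.

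Sp110, a nuclear body protein related to SP100, was the single measured member within 2-fold, at 0.32 (1.25-fold), against 1.12 for Adar, the member with the next smallest difference, and its probes did not speak with 1 voice. The brightest probe, which represents the gene under the rule used for all genes, read 96609 on the 5/6Nx array and 62383 on the sham array. The next brightest read 22587 on the 5/6Nx array and 1790 on the sham array (3.35), and the one after it read 1262 on the 5/6Nx array and 103.8 on the sham array (3.29). The fourth read 32.0 on the 5/6Nx array and 17.4 on the sham array (0.57). The first 30 of the 60 bases of the 2 brightest probes, which lie on chromosome 1 (mm9), are shown with a run of TG repeats in capitals.

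Sp110, brightest probe, 87473677 to 87473736: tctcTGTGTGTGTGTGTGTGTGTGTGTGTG
Sp110, next brightest probe, 87473532 to 87473591: cttgttcacagctgacttacaatggcaaag

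The brightest probe opens with a long dinucleotide repeat, which the next brightest lacks in the stretch shown. Over all 111 probes measured on both arrays that hold at least 8 TG or CA repeats in a row, the median difference was 0.33. What such probes read was not tested. Without probes of this kind, an alternative added after the values had been seen, Sp110 was represented by the probe at 3.35, and 36 of 36 measured members were at least 2-fold higher.

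Members at the membrane or outside the cell included 3 with large differences. Apol9b, an apolipoprotein L gene with the near-identical neighbour Apol9a, which the probe may also read, gave 5347 on the 5/6Nx array and 26.6 on the sham array (7.34). The sham reading was close to background, and with normexp background correction the difference was 5.72. Rtp4, a chaperone of membrane receptors with antiviral activity, read 38766 on the 5/6Nx array and 376.9 on the sham array (6.37). Bst2, tetherin, which holds budding virions at the cell surface, read 38806 on the 5/6Nx array and 603.9 on the sham array (5.70). These 3 members were each more than 32-fold higher.

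Ifi27l2a, a small hydrophobic membrane protein, read 76919 on the 5/6Nx array and 3824 on the sham array (4.02). Lgals3bp, a secreted glycoprotein that binds galectins, read 42281 on the 5/6Nx array and 2236 on the sham array (3.93). Tor3a, a torsin ATPase of the endoplasmic reticulum, read 8530 on the 5/6Nx array and 634.0 on the sham array (3.44). Lgals9, the galectin that binds the checkpoint receptor TIM-3, read 3288 on the 5/6Nx array and 1028 on the sham array (1.37), the smallest difference in this group.

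Among signal modulators and cytosolic factors all 6 were at least 2-fold higher. Xaf1, which opposes the apoptosis inhibitor XIAP, read 9508 on the 5/6Nx array and 246.6 on the sham array (4.96). Ifi44, a cytosolic antiviral protein, read 1005 on the 5/6Nx array and 31.7 on the sham array (4.68), and another Ifi44 probe read 4221 on the 5/6Nx array and 3.42, not well above background, on the sham array. With normexp the Ifi44 difference was 3.31. Nmi and Ifi35 encode partners that bind each other and modulate innate signalling. Nmi read 7612 on the 5/6Nx array and 620.5 on the sham array (3.31), and Ifi35 read 30169 on the 5/6Nx array and 3083 on the sham array (2.98). Epsti1, a gene linked to macrophage polarisation, was dim, with 238.8 on the 5/6Nx array and 26.9 on the sham array (2.84, or 1.52 with normexp). Trafd1, a negative regulator of Toll-like receptor signalling, read 26977 on the 5/6Nx array and 5648 on the sham array (1.95).

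Different probes of 1 gene mostly gave the same side. Among 62 member probes with a signal on both arrays, 56 exceeded 2-fold in the direction of 5/6Nx, none was lower by that amount and 6 lay within 2-fold, while 9 further probes were detected on the 5/6Nx array alone. Shares over all probes were not computed. Over all genes they were 11.8% higher, 9.71% lower and 9.77% detected on the 5/6Nx array alone. Probes of 1 gene are not independent. Several probes were measured for 18 members, and only Helz2 had them on both sides of 0. Its second probe, which starts at base 2047 of the transcript and not at base 9932, read 227.9 on the 5/6Nx array and 207.5 on the sham array, a difference of -0.18 in place of 3.09. Lgals3bp, like Parp9, had a dim probe well below its brightest one, at 0.33. A second Pnpt1 probe gave 0.97. The 5 Samhd1 probes ran from 3.12 to 3.84 and the 2 Parp14 probes from 3.73 to 3.85.

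**Figure D4:**
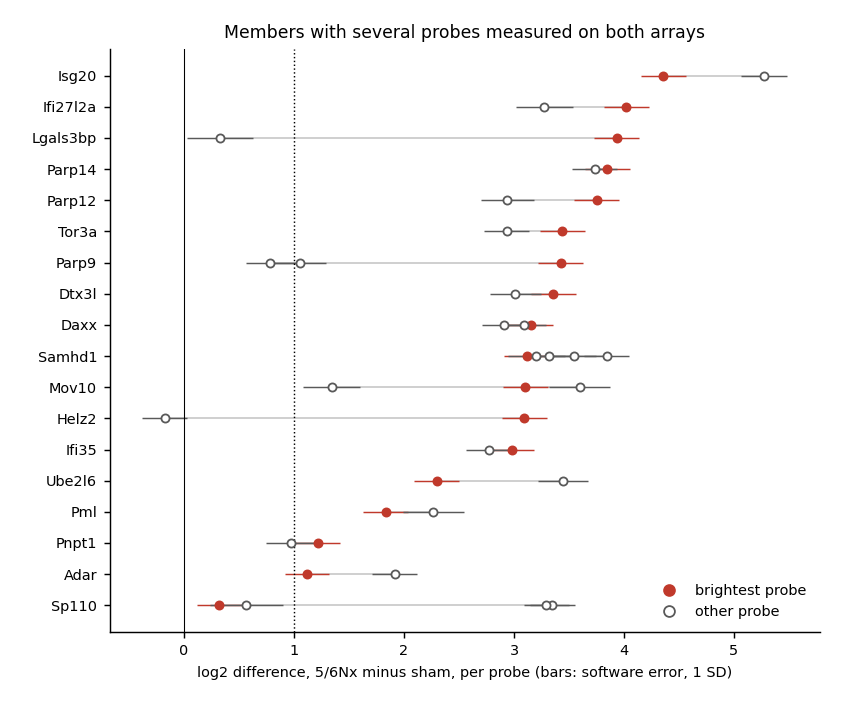
Log2 difference, 5/6Nx minus sham, of each probe measured on both arrays, for the 18 members with several such probes; filled points are the brightest probe of a gene, open points the others, bars the software error (1 SD) and the dotted line 2-fold. The open points furthest from the filled one belong to Helz2, Lgals3bp, Parp9, Sp110 and Mov10. Smaller gaps, as in Ube2l6 (3.44 against 2.30) and Isg20 (5.28 against 4.36), also exceed the software error.

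Genes upstream of the members in the pathway were read from lists of their roles. Among transcription factors of the interferon response, Irf7, the amplifier of the type I response, differed by 7.41, Irf1 by 4.45, Stat2 by 3.42, Irf9 by 1.86 and Irf2 by 1.42, while Irf8 differed by 0.23. By the brightest probes, of the 7 receptor chains and Janus kinases only Jak2 was at least 2-fold apart (3.14). Ifnar1, Ifnar2, Ifngr1, Ifngr2, Jak1 and Tyk2 lay between -0.27 and 0.87. The 4 Ifnar1 probes did not read alike and ran from -1.26 to 0.32. Of the 5 feedback inhibitors, 4 were higher, Cish by 6.26, Socs1 by 6.10, Socs3 by 5.10 and Ptpn6 by 1.59, and Pias1 differed by -0.26. Among 8 interferon genes, Ifng, which encodes the interferon made mainly by T and NK cells, read 11298 on the 5/6Nx array and 11.5, not well above background, on the sham array, a difference of at least 713-fold. Ifnb1 was detected on the 5/6Nx array alone, with an intensity of 69.8, against 2.57, not well above background, on the sham array, and a bound of at least 4.41-fold. Ifna1, Ifna2, Ifna5 and Ifnk were measured on both arrays and lay within 2-fold, and Ifna4 and Ifne were above background on neither. The readings of Ifna1, Ifna2 and Ifna5 were dim, from 31.8 to 78.6 over both arrays, which limits what their differences can show.

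Markers of the sorted cells and of others were measured alongside. All 8 monocyte markers were detected on both arrays, and their summed signal, in multiples of the array's 75th percentile, was 1598 on the 5/6Nx array and 1336 on the sham array. These markers went both ways, with a median difference of -0.31. Ly6c1 and Ly6c2, of the sorted antigen, were each higher by 1.98, and only with them counted is the summed signal higher on the 5/6Nx array. Cd68 differed by -1.42, Ccr2 by -0.89 and Lyz2 by -0.52. Itgam, which encodes CD11b, read 31995 on the 5/6Nx array and 33016 on the sham array (-0.36), but its second probe gave -1.18. Of 10 T cell markers, 7 were at least 2-fold higher and 2, Cd8a and Trat1, were not well above background on the sham array, with summed signals of 57.4 on the 5/6Nx array and 3.36 on the sham array. Of 9 NK cell markers, 4 were at least 2-fold higher and the other 5, Ncr1, Klrb1c, Klrd1, Klrk1 and Eomes, had no sham signal well above background (80.3 on the 5/6Nx array and 0.767 on the sham array). Of 7 basophil and mast cell markers, 2 were at least 2-fold higher and 5, Mcpt8, Cpa3, Prss34, Gata2 and Ms4a2, were not detected on the sham array (6.98 on the 5/6Nx array and 0.347 on the sham array).

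The remaining lists held markers that went both ways, so that their sums say little of single genes. Summed plasma cell markers gave 109.8 on the 5/6Nx array and 39.7 on the sham array, with Jchain and Mzb1 not detected on the sham array. Of 4 measured markers, Irf4 (4.41) and Prdm1 (1.18) were higher and Sdc1 (-2.10) was lower. Xbp1, the brightest of the list on the sham array, lay within 2-fold (0.30). Red pulp macrophage markers gave 181.5 on the 5/6Nx array and 158.0 on the sham array, with 2 of 5 measured markers higher and 2 lower. Plasmacytoid dendritic cell markers, a list that shares Bst2 with the members, gave 311.2 on the 5/6Nx array and 268.9 on the sham array. Bst2 adds little to the sham sum (603.9 intensity units, before scaling) and more to the 5/6Nx sum (38806). Only with Bst2 counted is the 5/6Nx sum the higher one. Of the 7 markers, Bst2 (5.70) and Lair1 (3.12) were at least 2-fold higher and 5 lay within 2-fold, with a median difference of 0.23. Siglech, the brightest of them, differed by -0.20. Neutrophil markers gave 29.4 on the 5/6Nx array and 32.0 on the sham array, with Lcn2 (7.31), Ly6g (4.53) and Camp (2.18) higher, Mmp8 (-3.97) lower and a median difference of 1.34. Markers of conventional dendritic cells gave 8.40 on the 5/6Nx array and 52.1 on the sham array, a sum set by Clec10a (-4.12), while Batf3 (4.28) and Itgae (4.43) were higher and the median difference was 0.72. Platelet markers gave 27.1 on the 5/6Nx array and 412.0 on the sham array, with 3 of 5 measured markers lower and 1, Clec1b (3.59), higher. The part of other cell types in the members' differences was not tested, and in such bulk RNA a change in the share of a cell type and a change in RNA per cell cannot be told apart.

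The brightness of the arrays and the choice of scaling bear on all of these values. Well above background were 67.0% of non-control spots on the 5/6Nx array and 63.0% on the sham array, and no non-control spot was saturated. Of all genes at least 2-fold apart, 54.8% were higher on the 5/6Nx array, against 41.2% under median scaling and 82.4% when scaled to the spike-ins. Spike-in scaling shifted the median of all genes by 0.43, loess by 0.15 and median scaling by -0.15. The 4 members with the smallest differences among those counted as higher, Adar (1.12), Pnpt1 (1.21), Tdrd7 (1.33) and Lgals9 (1.37), lie nearest the 2-fold line, and of these Adar alone fell short of it under median scaling, at 0.97.

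**Figure D5:**
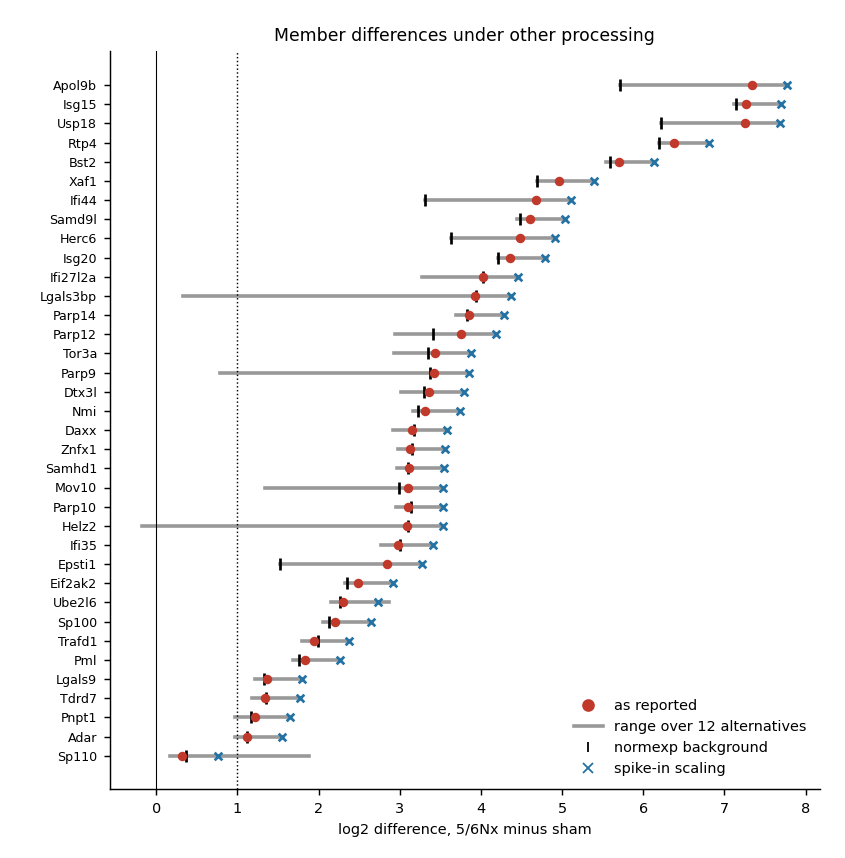
Log2 difference, 5/6Nx minus sham, of the 36 measured members as reported (red), its range over 12 alternatives (grey), and the values with normexp background correction (black tick) and spike-in scaling (blue cross); the dotted line marks 2-fold. The range of 30 members lies wholly beyond 2-fold, and the long grey bars of Helz2, Lgals3bp, Parp9 and Mov10 come from the choice of probe.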

How the data were processed

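Cy3-labelled RNA of 1 sample per group was hybridised to 1-colour Agilent arrays. Per the file headers, the authors' scanner output gives processed intensity on a linear scale, background-subtracted and detrended within each array, with no scaling between arrays. The submitters' processing notes name Agilent Feature Extraction 9.5.1.1, and the file headers 10.7.1.1. The authors' deposited value table lists linear intensity for 52145 probes, and its column medians are 48.2 (5/6Nx) and 47.5 (sham), uncentred, by a normalization not given in the sources used here.

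Of 59305 non-control spots, 70 that the software flagged as outliers were dropped, none of them a member's. Values are log2 of the intensity over the array's 75th percentile, which was 544.5 (5/6Nx) and 439.2 (sham). A gene is represented by its brightest probe well above background on both arrays, under the gene name in the files. Probe positions are those in the files (mm9), without exon or UTR annotation, which is not used here. A gene above background on 1 array only was bounded against the dim array's lowest signal well above background, or against the dim probe itself where that was higher. The error of a difference comes from the software's error of each spot. No test was possible with 1 array per group. Every member is named, and the other genes named come from the lists of pathway genes and markers. A few genes of these lists are not reported here. Members, lists and motifs were chosen with earlier results of these data known. Steps were tested on simulated data. Alternatives covered scaling, background correction (limma 3.58.1, offset 50), filters, probe choice, gene naming and the authors' value table. Python 3.11.15 and pandas 2.3.3 were used.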

Additional observations from a re-analysis of the deposited data

How the results depend on the processing

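With 1 array per group no replicate could be left out. No paired analysis was possible because the groups share fewer than 2 replicate numbers. The count of members at least 2-fold higher ran from 31 (probe with the smallest difference) to 37 (looser or no filter on dim probes), and none was at least 2-fold lower under any alternative. The 37 take in Cmpk2 and Ddx60, which were detected on the 5/6Nx array alone, so their side was given beforehand. Of all genes, 16.8% were at least 2-fold higher with the looser filter and 14.4% with no filter. The median of the members was 3.66 with spike-in scaling, 3.46 with loess and 2.94 with the probe of smallest difference, in place of 3.23, and moved by less than the software error otherwise. Only Helz2 turned its side, to -0.18 with the probe of smallest difference. The share of all genes at least 2-fold higher was 21.7% with spike-in scaling, 6.44% with normexp and 4.12% at 4-fold, in place of 11.8%, and the share lower was 4.62% with spike-in scaling and 2.18% at 4-fold, in place of 9.71%. Each member had 12 alternatives, and 30 members stayed at least 2-fold higher in all of them. The other 6 were Adar, Helz2, Lgals3bp, Parp9, Pnpt1 and Sp110. Dim sham readings limit the size of the differences of Apol9b, Epsti1, Ifi44, Herc6 and Usp18, which were 5.72, 1.52, 3.31, 3.63 and 6.22 with normexp.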
